A study of Mus musculus with 12 samples.

Results

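Vascular growth factors and their neuropilin co-receptors were examined in perivascular macrophages, which line the blood vessels of the brain, from mice of 2 ages. The set holds 10 of the 17358 genes measured, chosen by name: the ligands Vegfa, Vegfb, Pdgfa, Pdgfb, Pdgfc, Hgf, Hbegf and Igf1 and the co-receptors Nrp1 and Nrp2. All 10 were present in the table, and 9 passed the filter on low counts, Vegfa being the exception. Libraries were made with SMART-seq2, which amplifies whole transcripts from little RNA after oligo-dT priming, and came from C57BL mice of 18 months (aged, n = 5) or 3 months (young, n = 7). The submitters call the libraries of a group biological replicates. The labels give no treatment, genotype change, sex, sort marker or batch, and neither the number of cells nor that of animals behind a library, although the protocol speaks of lysis of single cells. In RNA from more than 1 cell, fewer cells that express a gene and less RNA per cell cannot be told apart.

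Growth factors of this kind carry signals from macrophages to the cells of the vessel wall. Vascular endothelial growth factors act on tyrosine kinase receptors of endothelial cells, and platelet-derived growth factors act on receptors of pericytes, smooth muscle cells and fibroblasts. Neuropilins are receptors without kinase activity that hold vascular endothelial growth factors and class 3 semaphorins and present them to partner receptors. Hepatocyte growth factor, heparin-binding EGF-like growth factor and insulin-like growth factor 1 act through the receptors Met, Egfr and Igf1r on many cell types.

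Library totals lay between 23214836 and 30628787 estimated counts, and between 8013 and 10266 genes had at least 5 counts in a library. Aged libraries had 8648 ± 736 such genes (SD, n = 5) and young ones 9198 ± 869 (SD, n = 7), a difference with an exact two-sided permutation p of 0.258. The 8 markers of perivascular macrophages, among them Mrc1 and Cd163, summed to between 9832 and 19490 normalised CPM (the estimated count scaled to the library total and the TMM factor) per library. The 8 microglia markers summed to between 3592 and 6843 normalised CPM, so transcripts typical of microglia were also present in every library. The 10 endothelial markers summed to at most 27.8 and the 10 mural cell markers to at most 14.0 normalised CPM. Higher sums were reached by markers of fibroblasts (up to 165), astrocytes (11.7 to 140), neurons (up to 93.0) and red cells (up to 248). Oligodendrocyte lineage markers summed to between 27.2 and 85.0. Markers of monocytes and neutrophils reached 78.9 and those of lymphocytes 39.7, and choroid plexus markers are given below. Aged libraries 1, 3 and 4 stood apart on the first principal component, at 76.1, 95.1 and 104.8 against values from -47.6 to -10.8 in the other 9. Leaving these 3 out, as is done below, keeps aged libraries 2 and 5 alone in the aged group.

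To show the sequence near the start of the gene highest in level and of the 2 lowest, the 250 bases before a RefSeq transcription start are given for Nrp1, Vegfa and Hgf, from RefSeq on GRCm38.p6 and 5' to 3' on the strand of the gene. Nrp1 covers chr8:128358823-128359072 on the plus strand, Vegfa chr17:46032378-46032627 on the minus strand and Hgf chr5:16553245-16553494 on the plus strand. The Nrp1 window belongs to a start 482 bases past the outer edge of the RefSeq gene and so lies inside the gene, while those of Vegfa and Hgf, the outermost of 2 windows each, end at the edge. None of the 3 windows holds a base of a GENCODE M21 exon. Capitals mark GGGCGG (the GC box bound by Sp1 factors) and GAGGAA (a core of sites for the macrophage factor PU.1), each on either strand; in Nrp1 the 2 motifs share no base but lie side by side.
Nrp1: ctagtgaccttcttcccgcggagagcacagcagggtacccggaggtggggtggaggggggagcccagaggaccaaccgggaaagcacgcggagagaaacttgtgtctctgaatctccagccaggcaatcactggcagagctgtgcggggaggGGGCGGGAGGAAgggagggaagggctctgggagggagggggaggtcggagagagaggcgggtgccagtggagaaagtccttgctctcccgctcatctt
Vegfa: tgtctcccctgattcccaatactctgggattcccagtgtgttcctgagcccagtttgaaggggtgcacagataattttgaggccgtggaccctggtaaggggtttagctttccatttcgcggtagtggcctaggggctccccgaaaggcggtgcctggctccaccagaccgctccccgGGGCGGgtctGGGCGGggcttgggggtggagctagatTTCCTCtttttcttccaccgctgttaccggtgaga
Hgf: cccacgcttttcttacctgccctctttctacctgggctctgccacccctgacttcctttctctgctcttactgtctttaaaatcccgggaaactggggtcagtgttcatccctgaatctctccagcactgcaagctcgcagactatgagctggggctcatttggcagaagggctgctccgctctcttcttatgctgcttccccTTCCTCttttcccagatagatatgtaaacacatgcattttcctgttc
The Nrp1 sequence held 1 GC box and 1 PU.1 core, the Vegfa sequence 2 GC boxes and 1 PU.1 core, and the Hgf sequence no GC box and 1 PU.1 core. None of the 3 windows held ACGTG, the core of the element bound by hypoxia-inducible factors, on either strand. Sites outside these 250 bases are not described here. Over all 32851 RefSeq windows of the same length, 32.7% held the GC box, 23.3% the PU.1 core and 16.6% the hypoxia core, so the same letters are common in promoters at large. The GC content was 64.4% for Nrp1, 59.2% for Vegfa and 50.8% for Hgf, against a median of 52.4%. These matches describe the letters and show no binding. Gene coordinates below are those of RefSeq on the same build.

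The 10 genes covered a wide range of levels. Levels between genes were compared as FPKM, the deposited value that divides counts by transcript length and library total. Nrp1, the co-receptor, had the highest median over the 12 libraries (82.3 FPKM, range 54.06 to 114.43), followed by Igf1 (77.6 FPKM, range 57.63 to 98.95). These 2 could not be ordered, since each exceeded the other in 6 of 12 libraries. Both lay above the other 8 genes in every library, and together they made up between 64.3% and 91.1% of the summed FPKM of the set.

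Below them came Pdgfc (median 14.4 FPKM), Vegfb (8.68), Pdgfb (4.11), Hbegf (3.62), Pdgfa (2.81), Nrp2 (1.11), Vegfa (0.045) and Hgf (0.01). Neighbours in this lower part of the order overlapped in their ranges, and each exceeded the next in 5 to 8 of 12 libraries, so their order did not hold beyond the spread between libraries. The separation of Igf1 from Pdgfc did hold, in 12 of 12 libraries without overlap. Medians of all 12 libraries placed Nrp1 above 88.6% and Igf1 above 88.1% of the 9550 tested genes, and Nrp2 above 22.9%.

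**Figure D1:**
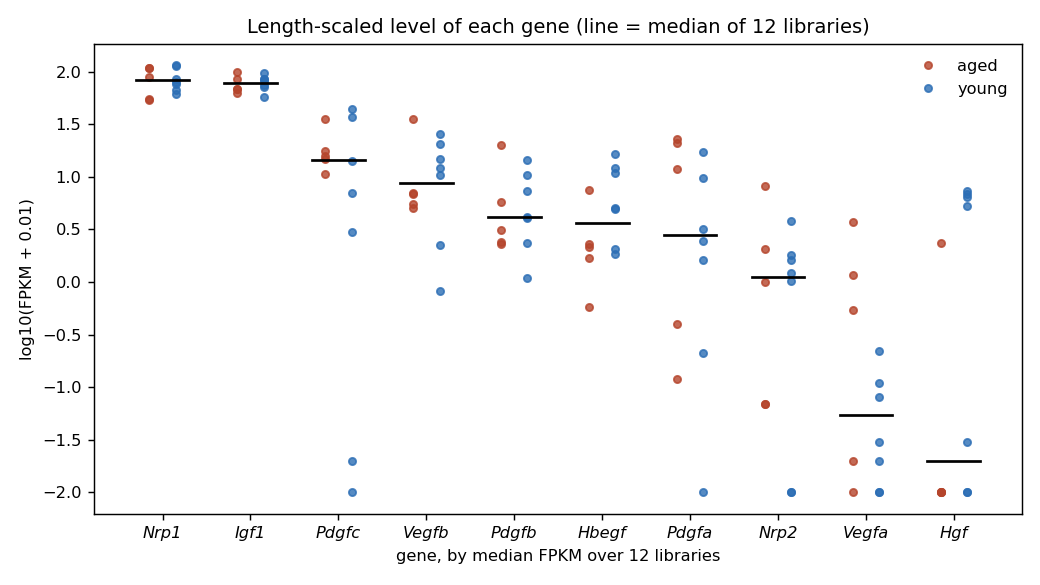
FPKM of each gene in each library on a log10 axis (0.01 added), in the order of the median over 12 libraries, with aged libraries in red, young in blue and the median as a line. Nrp1 and Igf1 lie above the other 8 genes in every library, while Vegfa and Hgf are near 0 in most.

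The design compares expression at 18 months with that at 3 months. No gene of the set differed between the groups by edgeR's quasi-likelihood test at an adjusted p under 0.05, and the adjusted p was 0.999 for each of the 9 tested. Of all 9550 genes tested, 0.0105% were called, which is 1 gene. None of the 9 tested members had an unadjusted p under 0.05, against 5.97% of all tested genes. None was called by DESeq2 or limma-voom either, and none by edgeR with bias-adjusted estimation. The groups overlapped for all 10 genes, whereas 0.597% of tested genes had no overlap. Of the 9 tested members 7 had positive and 2 negative log2 fold changes (median 0.20), against 4724 positive and 4826 negative over all tested genes (median -0.01). The common biological coefficient of variation was 1.33, so the spread was wide.

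**Figure D2:**
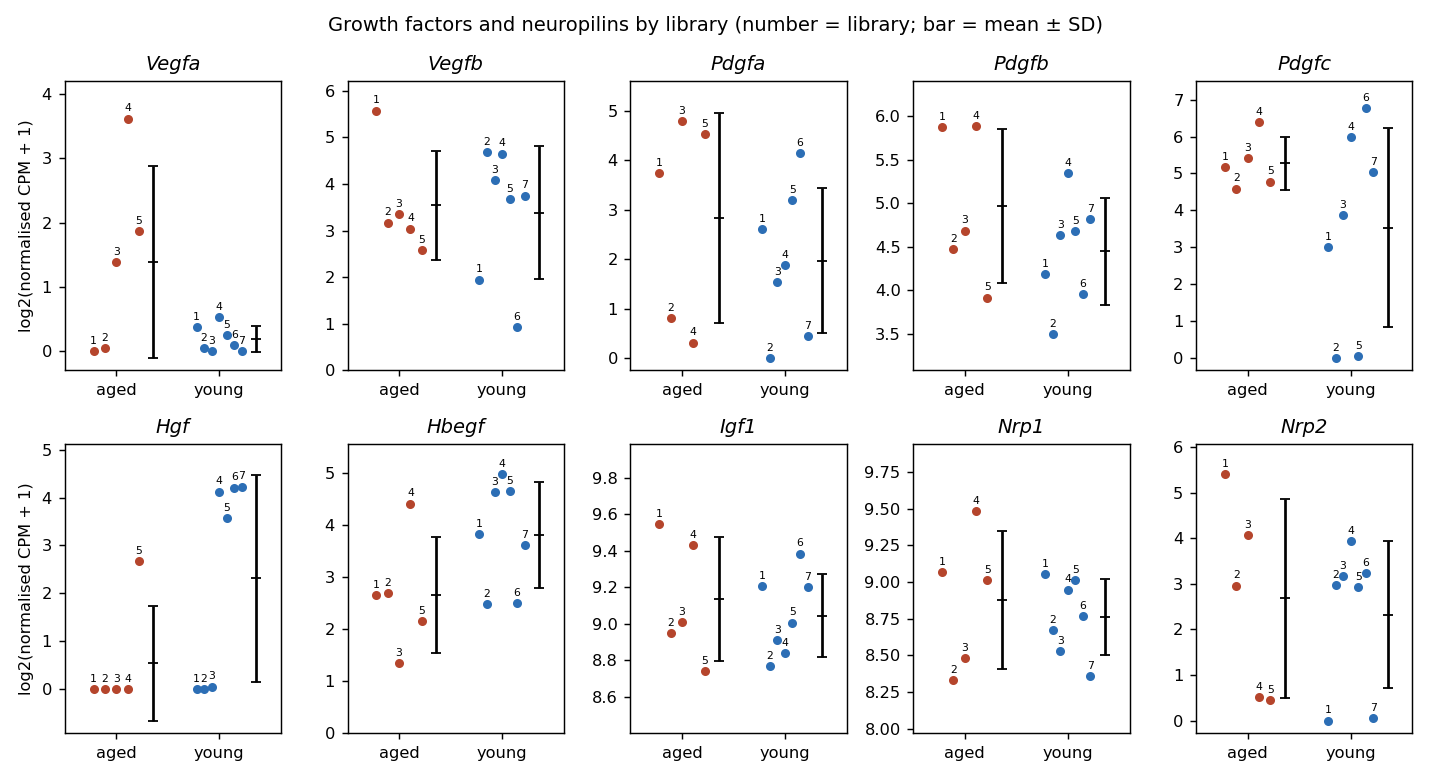
Normalised CPM of each gene on a log2 axis (1 added), 1 point per library with its number, aged in red and young in blue; bars give the mean ± SD of the log2 values, and the vertical scale differs between panels. The groups overlap in every panel, and Igf1 and Nrp1 span a narrow range while Pdgfc, Hgf, Pdgfa, Nrp2 and Vegfa include libraries at or near 0.

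Among the vascular endothelial growth factors, Vegfa (Entrez 22339, chr17:46016993-46032377), the principal endothelial growth factor, was almost undetected in young libraries. It had 0, 1, 32, 235 and 79 estimated counts in aged libraries 1 to 5, which is 0, 0.0337, 1.6, 11.3 and 2.64 normalised CPM. In young libraries it had at most 14 counts, with a lowest value of 0, a median of 0.0684 and a highest of 0.437 normalised CPM. Aged libraries 3, 4 and 5 lay above all young libraries and aged libraries 1 and 2 within or below them, and 3 counts, taken here as the detection floor, were worth 0.0979 to 0.129 CPM depending on the library.

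Vegfa did not pass the filter of the main test. Fitted without a filter, it gave a log2 fold change of 4.35 ± 2.34 (SE) and an edgeR adjusted p of 0.420, and DESeq2 gave an adjusted p of 0.165. An exact two-sided permutation test of log2(normalised CPM + 1) gave p = 0.0417, 1 of 10 such tests and not adjusted for them. That p ranged from 0.0182 to 0.1 on leaving out single libraries. It was 0.167 without aged libraries 1, 3 and 4, with aged libraries 2 and 5 alone left in that group. Leaving out any 1 library other than aged 1 or 2 brought it above 0.05, and without aged library 4 the difference was 0.64 in place of 1.2.

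Markers of choroid plexus epithelium, a tissue known to make Vegfa, were higher in sum in every aged library than in any young one. The 7 markers summed to between 201 and 1110 normalised CPM in aged libraries and between 59.4 and 147 in young ones, mostly Ttr, the one gene called over all tested genes. Kcnj13 averaged 40.8 against 0.375 normalised CPM. Folr1 was at 0 in all young libraries and at 15.2 normalised CPM in a single aged library, Kl was at no more than 1.15, and Otx2 averaged 0.221 in aged and 1.22 in young libraries, with a highest young value of 8.51. The summed markers were 1110 in aged library 4, which had the most Vegfa, but 1013 in aged library 2, which had 1 count of Vegfa. The part of these transcripts in the Vegfa values was not tested.

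Vegfb (Entrez 22340, chr19:6982472-6987651), a relative of Vegfa with a role in lipid handling of the vessel wall, was detected above 3 counts in all 12 libraries. Its levels were 46.7, 7.99, 9.21, 7.23 and 4.99 normalised CPM in aged libraries 1 to 5, and in young libraries 0.889 at the lowest, 12.5 at the median and 24.6 at the highest. Aged library 1 was far above the other aged libraries, and the other 4 aged libraries lay below the young median. The log2 fold change of 0.20 ± 1.06 (SE) was -0.88 without aged library 1. It was also -0.0 without young library 1 and -0.01 without young library 6, and kept its sign in 9 of the 12 fits without single libraries.

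Of the platelet-derived growth factors, Pdgfb (Entrez 18591, chr15:79995865-80024614) was present in every library. This ligand is best known for recruiting pericytes when endothelial cells release it. It stood at 57.9, 21.3, 24.7, 58.1 and 14.1 normalised CPM in aged libraries and between 10.3 and 39.8, with a median of 23.8, in young ones. Aged libraries 1 and 4 were higher than all young libraries, while the other 3 lay within them. This gave a log2 fold change of 0.65 ± 0.67 (SE), with means of 35.2 ± 21.2 (SD, n = 5) against 22.5 ± 9.72 (SD, n = 7). Without aged libraries 1, 3 and 4 it was -0.35. Of the 10 endothelial markers, Flt1, Tek, Esam and Ly6c1 did not exceed 3 counts in any library. Pecam1 reached 1.69, Cldn5 1.35, Cdh5 0.370 and Kdr 4.32 normalised CPM at most, while Itm2a reached 12.99 and Slco1a4 27.7.

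Pdgfc (Entrez 54635, chr3:81036416-81214040), whose protein must be cut by a protease to become active, was on in all aged libraries and off in some young ones. Its levels were 35.0, 23.1, 42.0, 83.5 and 26.4 normalised CPM in aged libraries. Young libraries ranged from 0 through a median of 13.5 to 108 normalised CPM, with 2 of the 7 at no more than 1 count. All 5 aged libraries lay above the young median, but the highest value belonged to young library 6. Aged against young, the log2 fold change was 0.40 ± 1.23 (SE), and -0.04 without aged library 4. It was 3.10 with limma-voom, 1.38 on log2(FPKM + 1) and 2.33 on log2(FPKM + 0.1), with the lowest limma adjusted p of the 3 at 0.570. The difference of mean log2(normalised CPM + 1) was 1.74, with an exact two-sided permutation p of 0.206. Plat, a protease that activates Pdgfc, exceeded 3 counts in 1 young library alone (33.9 normalised CPM), and Plau, a related plasminogen activator, was at 19.0 ± 10.3 against 9.22 ± 6.51 normalised CPM (SD, n = 5 and 7, aged against young).

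Pdgfa (Entrez 18590, chr5:138976014-139000792) was the most uneven of the 3. It was at 12.4, 0.742, 26.5, 0.239 and 22 normalised CPM in aged libraries and between 0 and 16.6, with a median of 2.65, in young ones. High and low libraries occurred in both groups, and the log2 fold change of 1.32 ± 1.51 (SE) stayed positive, between 0.81 and 2.03, when single libraries were left out. Pdgfa shares 26.1% of its exonic bases in the GENCODE M21 annotation with 6330403L08Rik on the opposite strand. No gene of that name was among those measured. Since this chemistry is unstranded, reads from either strand in the shared stretch may have been counted for Pdgfa.

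Hgf (Entrez 15234, chr5:16553495-16619439), a factor that acts on endothelial and epithelial cells through Met, was either clearly present or absent. It had no count in aged libraries 1 to 4 and 5.39 normalised CPM in aged library 5. Young libraries 1, 2 and 3 held at most 1 count, and young libraries 4 to 7 held 16.4, 10.9, 17.5 and 17.8 normalised CPM. The means were 1.08 ± 2.41 (SD, n = 5) against 8.94 ± 8.66 (SD, n = 7), and the exact two-sided permutation p was 0.0909, between 0.0909 and 0.188 when single libraries were left out and 0.528 without aged libraries 1, 3 and 4. The 8 fibroblast markers summed to 165 normalised CPM in aged library 5, and to 10.2, 8.54, 1.47 and 97.1 in young libraries 4 to 7. In libraries with at most 1 count of Hgf they summed to between 1.48 and 70.2, and their part in the Hgf values was not tested. Among these markers Dcn alone reached 159 normalised CPM in an aged and 83.2 in a young library, and Lum 56.4 in an aged one. Col1a2, Col3a1, Pdgfra and Slc47a1 did not exceed 0.888 in any library. Of the libraries with at most 1 count of Hgf, aged library 2 and young library 3 had 9429 and 9749 genes with at least 5 counts, while the others had 8013 to 8358.

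Hbegf (Entrez 15200), a membrane-bound ligand of the EGF receptor that is released by shedding, was lower on average in aged libraries, within the spread. It was at 5.31, 5.46, 1.55, 20.4 and 3.45 normalised CPM in aged libraries, and at 4.57, 13.2 and 30.8 as the lowest, median and highest young value. Aged library 4 lay above the young median and the other 4 aged libraries below it. Its log2 fold change was -1.15 ± 1.08 (SE), and -2.04 without aged library 4. The exact two-sided permutation p was 0.0934 with all libraries and 0.0303 without aged library 4, with a range of 0.0303 to 0.203 over single libraries left out.

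Igf1 (Entrez 16000, chr10:87858265-87937047), which supports the growth and survival of vascular and neural cells, was steady. It stood at 747, 493.2, 515, 690 and 427 normalised CPM in aged libraries and between 435 and 667, with a median of 514, in young libraries. The 2 groups covered nearly the same range. With age the difference on the log2 scale was 0.11 ± 0.20 (SE), with means of 574 ± 137 (SD, n = 5) and 533 ± 84.6 (SD, n = 7). Its coefficient of variation within groups was 0.197, and 0.785% of all tested genes varied less; the median of tested genes was 0.814. High genes vary less in general, and among the 514 genes of at least 300 normalised CPM 11.1% had a smaller value than Igf1.

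Nrp1 (Entrez 18186, chr8:128358591-128505476), the co-receptor, was nearly as steady. It was at 536, 321, 356, 716 and 517 normalised CPM in aged libraries and between 327 and 530, with a median of 435, in young ones. Aged library 4 was the highest of all 12 and aged library 2 the lowest. The log2 fold change was 0.15 ± 0.22 (SE), and its coefficient of variation of 0.253 was undercut by 2.68% of tested genes and by 31.1% of those of at least 300 normalised CPM. On the FPKM scale the log2 difference of Nrp1 was -0.08 and that of Igf1 -0.04, so neither sign held across scales.

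Nrp2 (Entrez 18187, chr1:62703317-62818692), the neuropilin of veins and lymphatic vessels, was low and uneven. Aged libraries had 41.4, 6.78, 15.9, 0.431 and 0.368 normalised CPM, and young libraries ranged from 0 through a median of 6.85 to 14.3. Aged library 1 was the highest of the 12, and the low values occurred in both groups. The log2 fold change was 1.04 ± 1.54 (SE) and -0.14 without aged library 1. Per length, Nrp1 exceeded Nrp2 in every library, with ranges of 54.06 to 114.43 and 0 to 8.22 FPKM that did not overlap.

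**Figure D3:**
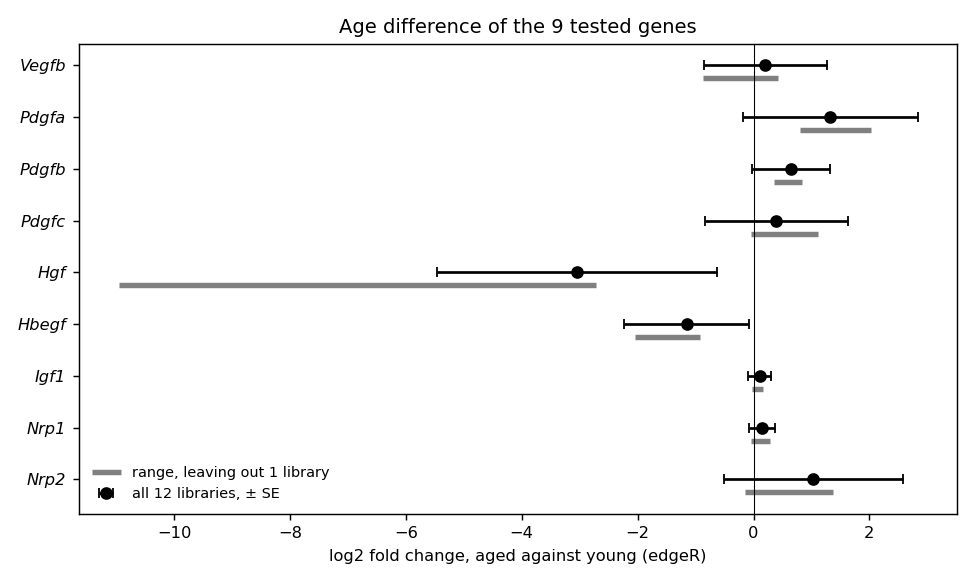
Log2 fold change of aged against young libraries for the 9 tested genes (points, with SE as bars) and the range of the same value when single libraries are left out (grey; for Hgf 8 of the 12 such fits, since it did not pass the filter in the others). Intervals of Igf1 and Nrp1 are narrow around 0, those of the other genes are wide, and the value of Hgf falls to -10.96 without aged library 5, which held the only aged counts of that gene.

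Presence and absence in single libraries was a feature of much of the set. At most 3 counts were found in 7 of 12 libraries for Hgf, 6 for Vegfa, 2 each for Pdgfc and Nrp2 and 1 for Pdgfa. The remaining 5 genes exceeded 3 counts in all libraries. Over all tested genes 51.8% had at least 1 library with no more than 3 counts, so this was common in the data.

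Transcript lengths could be read from the files, because a count divided by its FPKM and the library total gives the length used. Igf1 gave between 6977 and 7103 bases in all 12 libraries, close to the longest GENCODE M21 transcript of 7052 bases. Pdgfb, in contrast, gave between 2639 and 8858 bases, a ratio of 3.36, whereas the median ratio was 1.05 over 6825 genes with such a length in at least 8 libraries, and 0.982% of them exceeded 3. The Pdgfb length had a median of 6912 bases in aged and 3581 in young libraries, with overlapping values, and the longest GENCODE M21 transcript has 2944. Nrp2 gave between 4628 and 6694 bases, a ratio of 1.45, and Pdgfa between 966 and 1848, a ratio of 1.91. The log2 difference of Pdgfb was 0.65 in the edgeR fit, 0.52 as the difference of mean log2(normalised CPM + 1), and -0.05 on log2(FPKM + 1). FPKM also lacks the TMM factor, and the part of the length in this was not tested. Nrp1 gave a median of 5560 bases, above its longest GENCODE M21 transcript of 3645. The authors' annotation behind these lengths is not given here, and which transcripts were present was not tested.

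**Figure D4:**
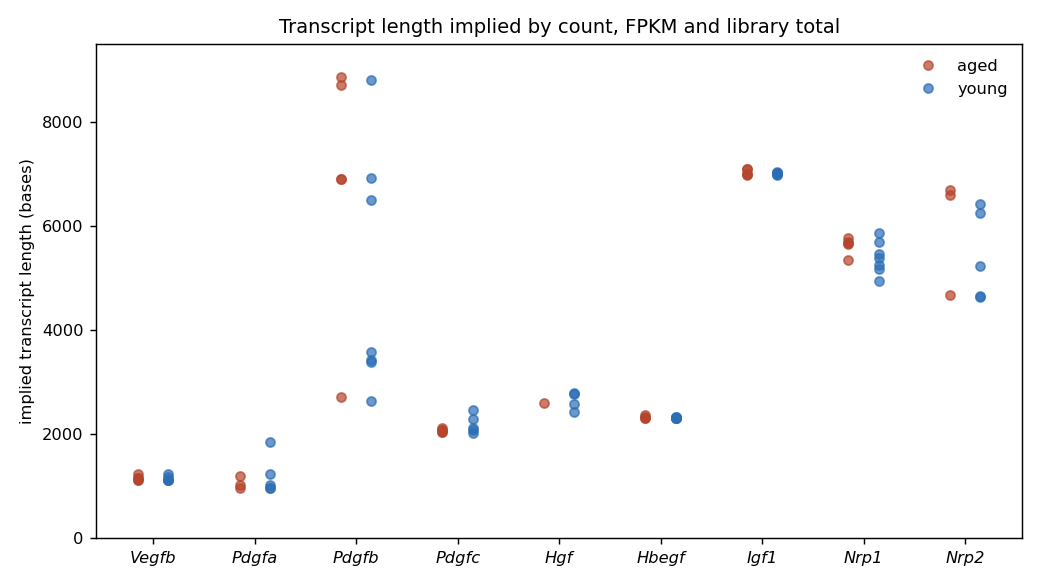
Transcript length implied by count, FPKM and library total for each gene and library with at least 50 counts and 0.5 FPKM, aged in red and young in blue (Vegfa, with 2 such libraries, is left out). Lengths of Igf1 and Hbegf differ by a ratio of 1.02 and 1.03 at most, whereas those of Pdgfb run from 2708 to 8858 bases in aged and from 2639 to 8801 in young libraries.

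The receptors of these ligands were for the most part near the floor. In the list of other VEGF ligands and receptors, 5 of 6 genes were in the table and none was abundant enough to be tested. Flt1, the decoy-like VEGF receptor, had 1 count over all 12 libraries, and Kdr, the main signalling receptor, exceeded 3 counts in 2 libraries, at no more than 4.32 normalised CPM. The PDGF receptors Pdgfra and Pdgfrb reached 0.687 and 5.29 normalised CPM at most, and Met, the Hgf receptor, exceeded 3 counts in 3 libraries, with a maximum of 22.1. Igf1r and Egfr were tested, with 8.80 ± 7.34 against 13.6 ± 13.8 and 7.45 ± 8.12 against 12.8 ± 15 normalised CPM (SD, n = 5 and 7, aged against young). Insr, the insulin receptor, was at 36.3 ± 16.3 against 29.7 ± 19.6.

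Of the genes that process or bind the ligands, those highest in mean FPKM in each list are given here. Adam10, a protease that sheds membrane proteins, was at 641 ± 285 (SD, n = 5) in aged and 364 ± 130 (SD, n = 7) normalised CPM in young libraries, with a log2 fold change of 0.82 ± 0.32 (SE) and an edgeR adjusted p of 0.593. Its value was -0.02 without aged libraries 1, 3 and 4. Adam9, of the same family, was at 111 ± 45.7 against 64.1 ± 14.6 (log2 fold change 0.79, edgeR adjusted p = 0.756). Igfbp4, a secreted protein that binds Igf1, was at 63.7 ± 18.8 against 93.8 ± 36.5, and Furin, a protease that matures growth factor precursors, at 7.83 ± 8.27 against 9.07 ± 6.83 normalised CPM. In the list of EGF receptor genes and sheddases 3 of 6 tested genes were positive and 3 negative, and in the IGF list 3 of 5 were positive.

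The list of semaphorins, plexins and the adaptor Gipc1, other partners of neuropilins, was sparse. Of its 12 genes measured 4 were tested, namely Plxna1, Plxna3, Plxna4 and Gipc1, and no semaphorin was. Of these 4, 2 were positive and 2 negative. Plxna4, a plexin that signals with Nrp1, was at 4.31 ± 3.90 in aged and 13 ± 6.70 normalised CPM in young libraries (log2 fold change -1.59 ± 1.19, edgeR adjusted p = 0.999). Gipc1, an adaptor that binds the tail of Nrp1, was at 5.67 ± 10.6 against 7.60 ± 9.15. Of the angiopoietins, FGFs and their receptors only Fgfr1 was tested, at 2.64 ± 2 against 6.93 ± 7.36.

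Genes of the hypoxia response, the best known control of Vegfa, gave no call. All 6 tested factors and regulators had positive log2 fold changes (median 0.52), each smaller than its SE. The list holds hypoxia factors and genes that act against them, such as Vhl, so a shared sign has no single reading. Hif1a was at 44.7 ± 36.7 against 42.6 ± 22.2, its partner Arnt at 35.6 ± 7.12 against 34.4 ± 11.9, and Vhl, which marks Hif1a for breakdown, at 17.7 ± 15.9 against 10.1 ± 9.77 normalised CPM. The signs of Hif1a and Arnt turned on the FPKM scale. Of 7 tested hypoxia targets 4 were positive and 3 negative (median 0.28). Ldha, a glycolytic enzyme, was at 66.6 ± 68.0 against 184 ± 38.3 (log2 fold change -1.47 ± 0.66, edgeR adjusted p = 0.789) and Aldoa, another, at 101 ± 91.3 against 173 ± 72.1 (log2 fold change -0.77). Without aged libraries 1, 3 and 4 these values were -0.42 for Ldha and -0.05 for Aldoa.

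Over all pathway lists, 31 of the 79 genes in the table were tested, 19 positive and 12 negative, and none was called, against 0.0105% of all tested genes. At an unadjusted p under 0.05 there were 3, against 5.97% of all tested genes, and no gene of these lists had groups without overlap. DESeq2, which tested without the filter, called Igfbp6 and Plxnd1 as lower in aged libraries (named after their values were seen). Igfbp6 had counts in 2 young libraries alone, and both genes had no count in any aged library. DESeq2 called 3.44% of the 11440 genes to which it gave an adjusted p.

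**Figure D5:**
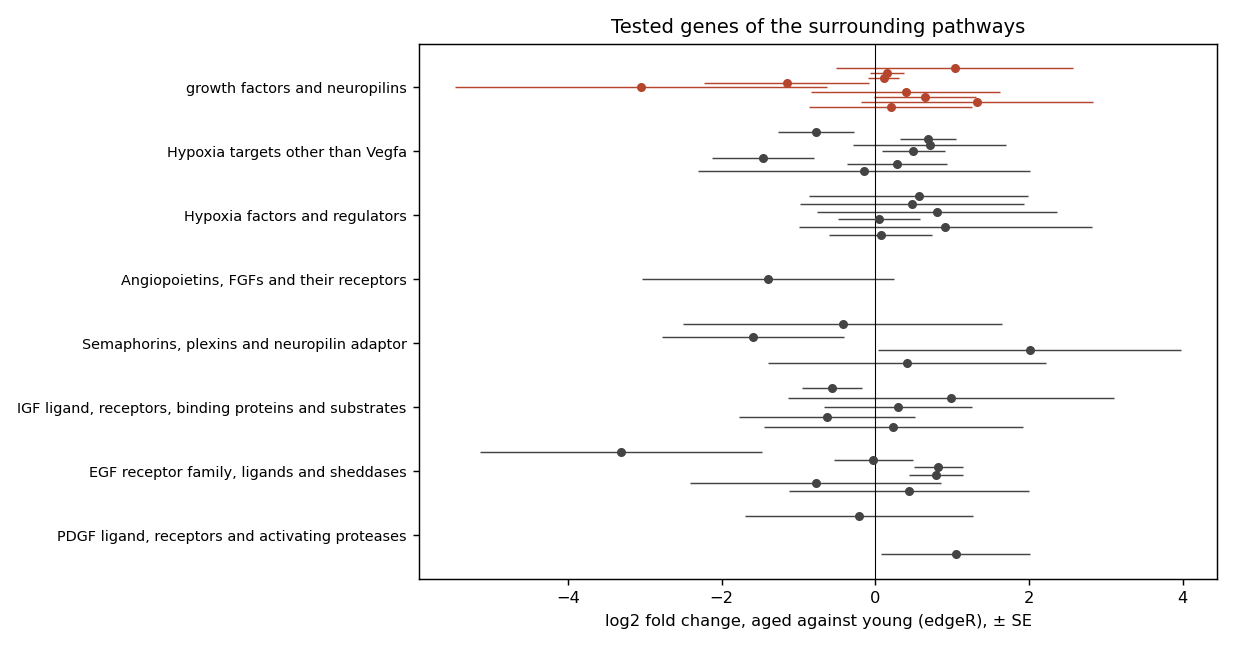
Log2 fold change of aged against young libraries with SE for the 31 tested genes of the pathway lists (grey) and the 9 tested growth factors and neuropilins (red). Points of most lists lie on both sides of 0.

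The genes most like Nrp1 in their variation between libraries, with group means removed, were Ptprc (Pearson r = 0.861 over 12 libraries), Ccar1 (0.855) and Bbip1 (0.844). For Igf1 they were Tbpl1 (0.921), Rpp30 (0.868) and Gatd1 (0.867), and for Pdgfc Arl4c (0.900), Galnt11 (0.871) and Mbd1 (0.828). These are the highest of 6692 genes of at least 10 normalised CPM and so are a description with no test; the points share library composition and depth.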

How the data were processed

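The authors deposited 1 table with estimated counts per gene, and the submitters' processing notes name RSEM 1.2.12, Bowtie2 2.2.5, HISAT2 2.0.4 and DESeq2 1.4.5 with the build GRCm38 (mm10), without roles. Whole numbers made up 88.2% to 90.6% of these estimated counts, and the rest were rounded before testing. The deposited table also holds values without a named unit, read as FPKM because count divided by value follows the library total. No column of another sample was present. Of the 17358 genes in the table, 17244 had an Entrez identifier found in RefSeq GRCm38.p6.

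Aged and young libraries were compared with edgeR 4.0.16 in R 4.3.3 (TMM, filterByExpr, quasi-likelihood test with robust legacy estimation, Benjamini-Hochberg adjusted p under 0.05). Alternatives used DESeq2 1.42.0, limma 3.58.1, other filters and scalings, FPKM, and fits without single libraries. The fit was tested on simulated data. CPM values are TMM-normalised and given as mean ± SD; the SE comes from the F statistic. Exact permutation tests used log2(normalised CPM + 1) over all splits into 5 and 7. Chemistry is unstranded and carries no molecular identifiers, so floors cover counting error only.

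The members and lists were chosen with earlier results of these data known. Named in the text are all members and, per pathway list, the 2 tested genes highest in mean FPKM and the one with the smallest p; receptors of the ligands were added by role, and genes of the overlap and likeness checks by their rules. Replicate numbers are shared by the groups, but nothing in the labels ties them to litters or days, and same-numbered libraries did not deviate together.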

Additional observations from a re-analysis of the deposited data

Results flagged for a closer look

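In 4 of 20 groups examined (10 genes in 2 age groups), 1 library lay far from the others of its group by Dixon's criterion. The criterion's rate of about 1 in 20 groups by chance holds for normally distributed values. Values such as these, with libraries at 0 for some genes, need not follow it, so 4 of 20 was not compared with chance. All 4 were the highest library of the aged group. Vegfa was at 11.3 normalised CPM in aged library 4, with 2.64 in the next. Vegfb was at 46.7 normalised CPM in aged library 1, with 9.21 in the next. Hgf was at 5.39 normalised CPM in aged library 5, with 0 in the other aged libraries. Hbegf was at 20.4 normalised CPM in aged library 4, with 5.46 in the next.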

How the results depend on the processing

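No member was called under any alternative in which it passed the filter, with edgeR, DESeq2 or limma. Hgf did not pass it without young library 4, 5, 6 or 7, nor in the fits over the libraries numbered 1 to 5. Over all genes the main test called 1 (higher), DESeq2 393 (145 higher, 248 lower), edgeR with legacy=FALSE 38 (36 higher, 2 lower), voom 2 (both higher), edgeR without a filter 13 (all higher), limma on log2(FPKM + 1) 6 (3 higher, 3 lower) and on log2(FPKM + 0.1) 0. With single libraries left out it called between 0 and 75 genes, 0 to 61 higher and 0 to 14 lower, the 75 without aged library 2. Without aged libraries 1, 3 and 4 it called 0, with aged libraries 2 and 5 alone left in that group. Of the pathway lists DESeq2 called 2 genes.

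Signs turned as follows, with the cause not tested. On log2(FPKM + 1) the values were -0.04 for Igf1, -0.08 for Nrp1, -0.05 for Pdgfb, -0.03 for Arnt and -0.13 for Hif1a, and on log2(FPKM + 0.1) -0.04, -0.08, -0.04, -0.02 and -0.16. With voom Hif1a was at -0.01 and Furin at 0.38. Without aged libraries 1, 3 and 4 the values were -0.21 for Igf1, -0.08 for Nrp1, -0.81 for Nrp2, -0.35 for Pdgfb, -0.38 for Pdgfc, -1.02 for Vegfb, -0.02 for Adam10, 0.66 for Furin and for Gipc1, -0.22 for Insr and -0.14 for Plau; without a change of sign, Hgf was then at -1.76, Hbegf at -1.85, Igfbp4 at -0.20, Vhl at 0.19 and Hif1a at 0.51. The mean differences of log2(normalised CPM + 1) that entered the exact permutation tests were then -0.51 for Vegfb, -0.25 for Pdgfb, -0.20 for Igf1, -0.09 for Nrp1 and -0.62 for Nrp2. On FPKM they equalled the limma values given above for Pdgfb, Igf1 and Nrp1.

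On leaving out single libraries the log2 fold changes ranged from -0.03 to 0.17 for Igf1, -0.04 to 0.28 for Nrp1, -0.14 to 1.37 for Nrp2, -0.04 to 1.12 for Pdgfc, -0.88 to 0.42 for Vegfb, -0.07 to 0.15 for Arnt, -1.09 to 0.07 for Furin, -3.04 to 0.12 for Gipc1 and -0.48 to 0.31 for Hif1a. The permutation differences ranged from -0.35 to 0.40 for Vegfb, -0.01 to 0.19 for Igf1, -0.04 to 0.25 for Nrp1 and -0.33 to 0.91 for Nrp2.

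With the replicate number as a block, over the 10 libraries numbered 1 to 5, 0 genes were called, as without the block in the same libraries (chosen after seeing the data). In the block fit Pdgfc was at 3.75, Nrp2 at -0.67, Vegfb at -0.66 and Furin at 0.99; without the block Vegfb was at -0.06 and Arnt at -0.02. Same-numbered libraries did not deviate together (correlations from -0.041 to 0.094). With a spread this wide, a weak shared effect could leave such values, so they cannot show whether the numbers pair the libraries. The 12 libraries and the floor of 3 counts limit what can be seen for Vegfa, Hgf and Nrp2.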

Other observations

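Several other vascular and guidance signals were present in a single library. Of the 48 pathway genes in the table that were not tested, 14 exceeded 3 counts in no library and 15 in exactly 1. Sema3a and Sema3c, class 3 semaphorins that bind neuropilins, reached 19.7 and 24.9 normalised CPM in 1 aged library each. Vegfc, the lymphatic growth factor, reached 9.47 normalised CPM in 1 aged library, and Pdgfd, the fourth PDGF ligand, 8.20 in another. Other genes of the lists exceeded 3 counts in 1 young library alone. Among them were Plat (33.9 normalised CPM), Spint2 (6.65), Erbb2 (3.72) and Sema3f (2.36), so such genes occurred in both groups. These genes were named after their values were seen.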
